A study of Rattus norvegicus with 48 samples.

Results

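The comparison described here asks which liver microRNAs (miRNAs) differed between rats given the low dose of thioacetamide (TAA) for 7 days (7-d) and their time-matched controls. It rests on 6 of the 48 sequenced libraries, 3 from rats at the low dose of 4.5 mg/kg once daily (replicates 46, 47 and 48) and 3 from rats that received vehicle alone for 7 days (replicates 4, 5 and 6). All were male Sprague-Dawley rats killed 24 hours after the last dose, and each library was made from the liver of 1 rat. The spread between replicates thus holds that between animals together with that of library preparation and sequencing, which cannot be told apart. Of 5 rats treated per condition the study sequenced 3, and the age of the rats is not given in the sources used here. Further groups of 3 rats, set beside these where stated, received the middle dose (15 mg/kg) or the high dose (45 mg/kg) for 7 days, or the low dose or vehicle for 14 days (14-d). The levels are reads per 1000000 counted reads (RPM). Tests were run on mature miRNAs that reached 5 RPM in 3 or more of the 48 libraries of the series, out of 664 with a read.

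A miRNA is cut from a hairpin precursor as a duplex of about equal arms, named 5p and 3p, and the arm that is retained guides a silencing complex to messenger RNAs. Target choice rests mainly on the seed, bases 2 to 8 of the mature miRNA, so miRNAs with the same seed are grouped as a family. TAA is a liver toxicant that hepatocytes oxidize to reactive products, with necrosis of the hepatocytes around the central vein and, on long exposure, fibrosis and tumours in rats.

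The mature sequences of miRNAs that the results turn on are given 5′ to 3′ from the RefSeq annotation of the rat assembly GRCr8, with the seed in capitals. The first group holds miRNAs that were higher at the low dose. Its first pair shares the miR-34 seed and its second pair the let-7 seed, and the others are the hepatocyte miRNA miR-122-5p and further higher miRNAs described below, of which miR-181a-5p was close to the fold threshold.
miR-34a-5p: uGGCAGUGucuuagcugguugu
miR-449a-5p: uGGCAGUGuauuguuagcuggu
let-7a-5p: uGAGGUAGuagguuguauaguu
miR-98-5p: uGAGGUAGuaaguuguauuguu
miR-122-5p: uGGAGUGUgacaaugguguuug
miR-7a-5p: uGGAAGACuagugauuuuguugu
miR-190b-5p: uGAUAUGUuugauauuagguu
miR-6329: aAUGUGACucagcuaucugaaca
miR-181a-5p: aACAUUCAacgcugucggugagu

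The second group holds miRNAs that were lower at the low dose. By name, 270 of the tested miRNAs were matched to a RefSeq mature sequence and 31 were not.
miR-19a-3p: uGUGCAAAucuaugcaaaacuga
miR-19b-3p: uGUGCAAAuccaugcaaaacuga
miR-128-3p: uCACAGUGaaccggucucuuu
miR-29a-3p: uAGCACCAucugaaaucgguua
miR-30c-5p: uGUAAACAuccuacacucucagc
miR-125a-5p: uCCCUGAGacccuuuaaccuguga

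The 6 libraries held between 7657717 and 11095988 counted reads, so that 3 reads, taken as the limit of detection for counting error only, corresponded to between 0.270 and 0.392 RPM. Log2 levels of replicates correlated with Pearson's r from 0.990 to 0.999, and no pair of libraries was alike within sampling noise. Low dose replicate 48 stood apart for 8 miRNAs (miR-463-5p, miR-741-3p, miR-743a-3p, miR-743b-3p, miR-743b-5p, miR-871-3p, miR-871-5p and miR-881-3p), which summed to 651 reads there and to between 0 and 7 in each of the other 5. They made up 0.00850% of its reads, and among them only miR-743b-3p was tested. The labels give no sequencing date or run, so the groups could not be split by batch.

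A differentially expressed miRNA (DEM) was one with an unadjusted p below 0.05 and a fold change above 1.5 in the edgeR quasi-likelihood F-test, the thresholds of the study's methods. At the low dose 87 miRNAs (28.9% of those tested) were DEMs, 55 higher (18.3%) and 32 lower (10.6%) than in controls, and 81 of them (26.9%) had a Benjamini-Hochberg adjusted p below 0.05. The median fold change was 1.80 among the higher DEMs and 1.85 among the lower ones. Changes above 2-fold were found for 18 higher and 11 lower DEMs, and changes above 4-fold for 3, all of them higher. Among these 3 was miR-743b-3p, which had the largest fold but was high in low dose replicate 48 alone. The values of the 2 groups did not overlap for 54 of the 55 higher and 29 of the 32 lower DEMs, beside 53.2% of all tested miRNAs (30.2% higher and 22.9% lower). When the counts were scaled by library size alone, the median log2 fold change over all tested miRNAs moved from 0.02 to -0.09 and the split became 41 higher and 49 lower. With the size factors of DESeq2 it was 49 higher and 39 lower, so the balance of directions depends on the scaling.

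**Figure D1:**
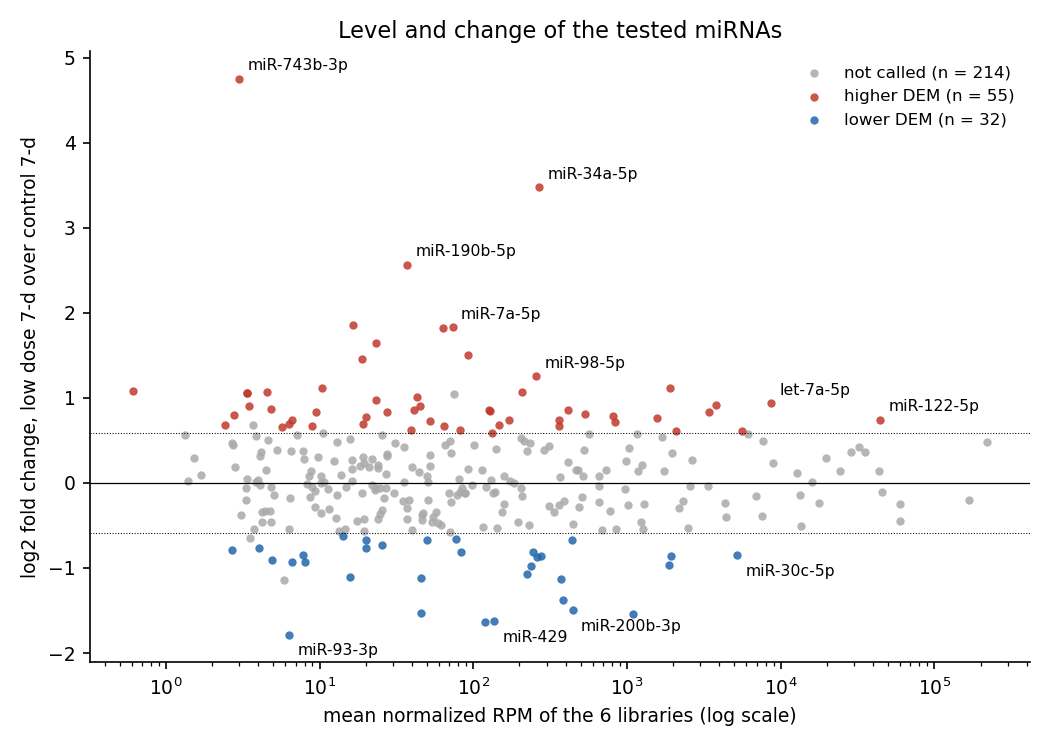
Each point is a tested miRNA, with its mean normalized RPM over the 6 libraries on a log axis and its log2 fold change, low dose over control at 7-d. Higher DEMs (55) and lower DEMs (32) are coloured, and they occur from the lowest levels tested to miR-122-5p among the most abundant.

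DEMs were found at all levels of expression. In 4 classes of near-equal size of the tested miRNAs by mean level, 15, 13, 15 and 12 were higher and 7, 8, 11 and 6 were lower, from the lowest to the highest class. The higher DEMs together took 5.87 ± 0.148% of all reads in controls and 9.35 ± 0.194% at the low dose, and the lower DEMs 1.89 ± 0.0619% and 0.892 ± 0.0877% (mean ± SD, n = 3 each). The DEMs were chosen on these same 6 libraries, so the direction of these sums was set by the choice and only their size is described. miR-122-5p alone went from 3.44 ± 0.0955% to 5.31 ± 0.112% of reads. At the edge of the fold threshold, miR-378a-5p was just inside with a fold of 1.5004 and let-7d-5p just outside with 1.4962.

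Among the higher miRNAs, miR-34a-5p had by far the smallest p-value. It is a transcriptional target of p53 and represses cell cycle and survival genes. Its normalized RPM was 40.99, 48.2 and 43.1 in the 3 control rats and 509, 552 and 417 in the 3 low dose rats, so every treated rat lay far above every control. The log2 fold change was 3.48 ± 0.14 (± SE here and below, adjusted p = 1.48e-06). The opposite arm, miR-34a-3p, was too rare to be tested, with 1 read in each control and 10, 17 and 15 reads at the low dose. The miR-34a-5p seed is shared by miR-449a-5p, a miRNA of ciliated epithelium, which rose from 2.48, 3.19 and 3.09 to 6.12, 5.88 and 6.59 normalized RPM (log2 fold change 1.07 ± 0.20, adjusted p = 0.00338). The third tested miRNA with this seed, miR-34c-5p, was not a DEM at -0.35 ± 0.14 (adjusted p = 0.0777). The miRNAs with this seed did not move as a block.

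The let-7 and miR-98 guide strands, which restrain cell growth and are abundant in adult liver, were higher or had positive values throughout. Of 9 tested members 5 rose and 0 fell, with a median log2 fold change of 0.76, beside a median of 0.02 and 18.3% higher over all tested miRNAs. All 9 had a positive log2 fold change, between 0.29 and 1.25, and they stayed positive under the other 3 scalings. The most abundant riser of the family, let-7a-5p, was at 6268, 6385 and 5283 normalized RPM in controls and at 10504, 11946 and 11881 at the low dose, without overlap (log2 fold change 0.94 ± 0.10, adjusted p = 0.000239). The largest fold was that of miR-98-5p, from 151, 155.3 and 147 to 334, 380.004 and 367 (1.25 ± 0.10, adjusted p = 7.48e-05). The other members that rose were let-7c-5p (0.83), let-7b-5p (0.78) and let-7i-5p (0.76). Below the fold threshold lay let-7d-5p (0.58), let-7g-5p (0.58), let-7e-5p (0.43) and let-7f-5p (0.29). These guides differ by few bases, as the printed let-7a-5p and miR-98-5p show, so reads may be split between them.

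Of the 10 tested passenger strands of the same precursors, 0 rose and 2 fell, with a median log2 fold change of -0.11, beside 18.3% higher and 10.6% lower over all tested miRNAs. let-7a-1-3p and let-7c-2-3p have the same mature sequence and near-identical values (both -0.12). The count of 10 thus holds 1 measurement more than once. The 2 that fell were let-7d-3p, from 652, 554 and 427 to 359, 356 and 307 normalized RPM (-0.67 ± 0.16, adjusted p = 0.00907), and let-7e-3p, from 7.09, 7.29 and 4.82 to 3.65, 3.43 and 3.15 (-0.90 ± 0.23, adjusted p = 0.0129). Neither pair of groups overlapped, and let-7d-3p was no longer a DEM without control replicate 4 (-0.53).

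miR-122-5p, the main miRNA of hepatocytes, rose. Its normalized RPM was 33107, 33681 and 32319.7 in controls and 53538, 52955 and 59646 at the low dose, with narrow ranges that did not overlap (log2 fold change 0.75 ± 0.08, adjusted p = 0.000233). Its opposite arm miR-122-3p was not a DEM and had a negative value (-0.25 ± 0.11, adjusted p = 0.102). The study, which names the same thresholds, did not find miR-122 differentially expressed at any time point or dose, unlike the call of miR-122-5p here. The most abundant miRNA of the libraries by mean level, miR-192-5p, made up 17.9, 19.5 and 20.004% of reads in the controls and 25.1, 23.1 and 25.7% at the low dose. Its log2 fold change of 0.49 ± 0.10 (adjusted p = 0.00429) stayed below the fold threshold. The 4 hepatocyte markers summed to between 222703 and 244032 RPM in controls and between 292050 and 319172 RPM at the low dose, and most of that sum was miR-192-5p and miR-122-5p. The other 2 markers had negative log2 fold changes, miR-122-3p as above and miR-194-5p (-0.15 ± 0.09, adjusted p = 0.218). Scaled by library total alone, miR-194-5p was at 7472, 7607 and 7601 RPM in controls and 5916, 6481 and 6458 RPM at the low dose, without overlap, whereas its normalized RPM overlapped. In whole liver, more cells of a type and more RNA per cell cannot be told apart, nor can fewer cells and less RNA. Other abundant miRNAs of the liver were higher too. miR-148a-5p, the rarer arm of its precursor, rose from 2421, 2733 and 2718 to 4516, 4715 and 5613 normalized RPM (0.92 ± 0.11, adjusted p = 0.000344). Its far more abundant partner miR-148a-3p was not a DEM and had a negative value (-0.25 ± 0.12, adjusted p = 0.128). miR-182 rose from 1089, 1186 and 1327 to 2033, 2688 and 3088 (1.12 ± 0.16, adjusted p = 0.000789).

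Several less abundant miRNAs had larger folds than miR-122-5p. miR-190b-5p was at 9.23, 10.1 and 12.7 normalized RPM in controls and at 47.2, 65.2 and 78.5 at the low dose (2.57 ± 0.22, adjusted p = 8e-05). miR-7a-5p, known as a repressor of growth factor signalling, was at 27.2, 34.4 and 34.998 and 126.9, 104 and 114 (1.83 ± 0.14, adjusted p = 7.48e-05). For both, each treated rat exceeded each control by more than 2-fold. miR-6329 rose from 29.4, 27.7 and 27.3 to 102, 109.9 and 86.8 (1.83 ± 0.13, adjusted p = 5.93e-05). miR-674-5p rose from 10.9, 9.21 and 10.4 to 25.8, 30.6 and 27.4 (1.46 ± 0.14, adjusted p = 0.000172). miR-3559-5p rose from 131.6, 142.5 and 124.9 to 271, 284 and 285 (1.07 ± 0.10, adjusted p = 0.000119). The groups did not overlap for any of these 5 miRNAs.

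In the miR-466 family, 5 of 6 tested members rose and 0 fell (median log2 fold change 1.05), beside 18.3% higher over all tested miRNAs, and 4 rose with library size alone. miR-466c-5p was at 48.4, 56.1 and 40.4 normalized RPM in controls and 140.6, 137 and 133.8 at the low dose (1.505 ± 0.14, adjusted p = 0.000114), and miR-466b-5p at 6.64, 7.48 and 7.18 and 23.97, 29.8 and 23.8 (1.86 ± 0.16, adjusted p = 8e-05). miR-466b-2-3p and miR-466b-4-3p carried identical values, so the count of 5 holds 1 measurement more than once. The fifth, miR-466c-3p, had the weakest support (0.68 ± 0.25, adjusted p = 0.0543) and was no longer a DEM in 10 of 20 alternatives, among them those without control replicate 6 (0.60) and without low dose replicate 48 (0.55). In the miR-181 family, known from lymphocyte development and also abundant in liver, 3 of 7 rose (median 0.53) and 1 of 7 with DESeq2 size factors or with library size alone, beside 18.3% higher over all tested miRNAs. miR-181a-5p went from 4657, 4225 and 4423 to 7334, 6361 and 6639 (0.61 ± 0.09, adjusted p = 0.000997), close to the fold threshold, and was no longer a DEM at 0.56 with DESeq2 size factors, at 0.49 with library size alone, at 0.58 without control replicate 5 or at 0.55 without low dose replicate 46. miR-181d-5p was lost with the same 2 scalings and without control replicate 4 (0.55) or low dose replicate 48 (0.55).

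Of the 3 tested members of the inflammation-linked miR-146 and miR-155 group, 2 rose and 0 fell, beside 18.3% higher over all tested miRNAs. miR-146b-5p, a feedback repressor of NF-kappaB signalling, was at 224, 298 and 364.6 normalized RPM in controls and 562, 492 and 556 at the low dose (0.86 ± 0.17, adjusted p = 0.0043), and miR-155-5p, a miRNA of activated immune cells, at 12.9, 13.7 and 17.5 and 27.5, 22.5 and 21.2 (0.69 ± 0.17, adjusted p = 0.0122). miR-155-5p was no longer a DEM with library size alone (0.57), which left 1 of the 3, or without low dose replicate 46 (0.57). miR-146a-5p, the third, was not a DEM (-0.26 ± 0.18, adjusted p = 0.289). Outside that list, miR-21-3p rose (0.86 ± 0.21, adjusted p = 0.0107), whereas its abundant partner miR-21-5p, a miRNA raised in many injured tissues and tumours, was not a DEM (0.37 ± 0.18, adjusted p = 0.144), with 34022, 36022 and 22571 in controls and overlapping values of 46876, 38163 and 34269 at the low dose. The DEM with the largest fold, miR-743b-3p, had normalized RPM of 0.113, 0.274 and 0.182 in controls and 0, 0 and 17.5 at the low dose. It was high in replicate 48 alone, the groups overlapped, its log2 fold change of 4.76 had an adjusted p = 0.0816, and without that replicate the value was -4.01.

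**Figure D2:**
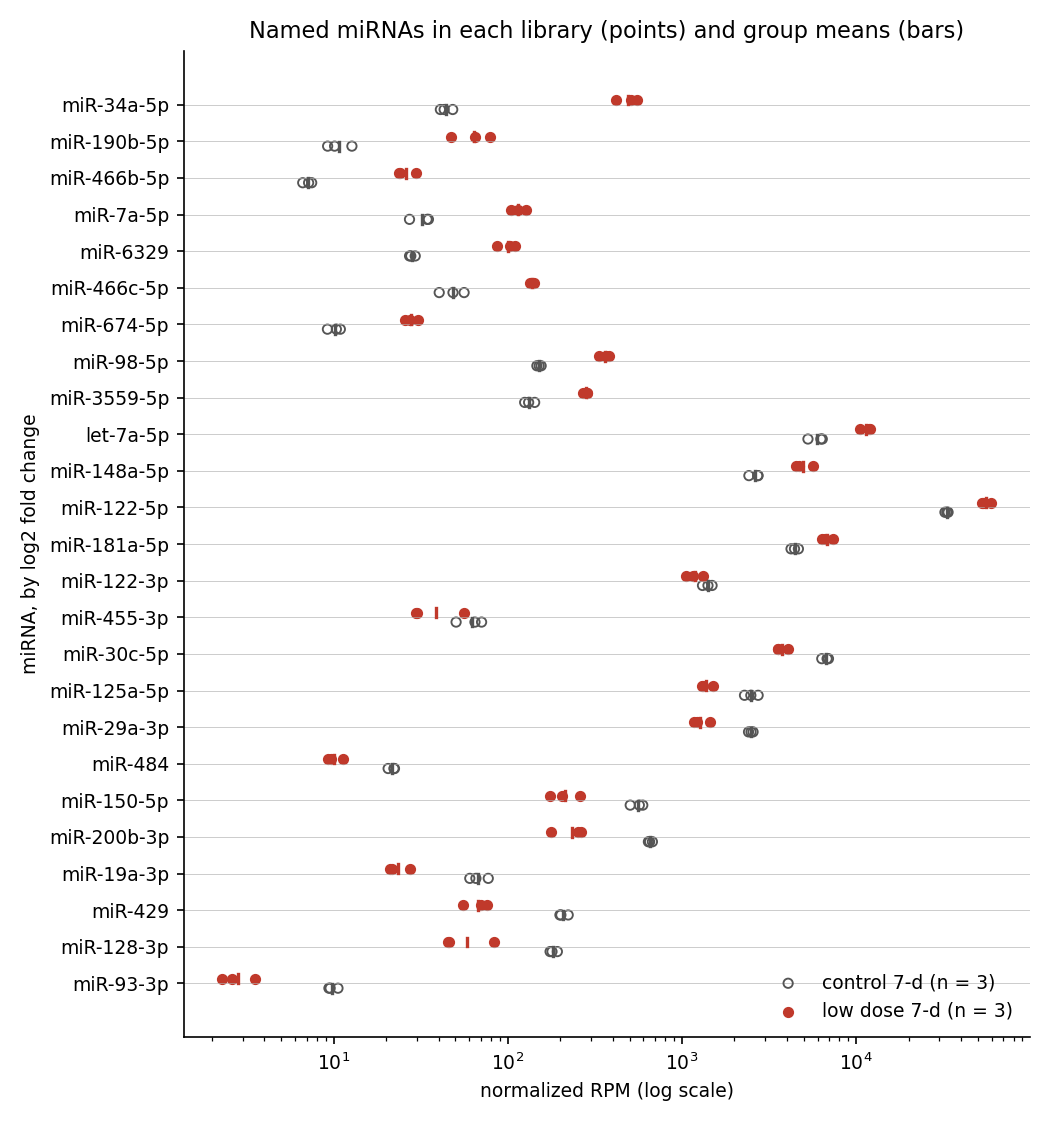
Named miRNAs are ordered by log2 fold change, with normalized RPM on a log axis. Points are the 3 control and 3 low dose libraries at 7-d and bars are the group means, with miR-34a-5p at the largest positive change and miR-93-3p at the largest negative one.

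The lower DEMs, 10.6% of all tested miRNAs, included 2 of the 6 tested members of the miR-200 family, which maintains the epithelial state and in liver marks bile duct cells. miR-429 fell from 199.1, 222.03 and 202 to 75.7, 70.5 and 55.0 normalized RPM (-1.63 ± 0.14, adjusted p = 8e-05), and miR-200b-3p fell from 652, 676 and 641 to 254, 265 and 177 (-1.499 ± 0.15, adjusted p = 0.000211). In both, every treated rat was more than 2-fold below every control. The other 4 were not DEMs, with miR-200a-3p at 0.16 ± 0.12, miR-200c-3p at 0.15 ± 0.19, miR-141-3p at -0.46 ± 0.23 and miR-200a-5p at 0.033 ± 0.21. miR-200a and miR-429 lie beside miR-200b in the same genomic cluster, so the lower level of the pair did not extend to the whole cluster. The 5 epithelial markers, of which this pair made up most, summed to between 1059 and 1072 RPM in controls and between 355 and 484 RPM at the low dose, and what the number of bile duct cells contributed was not tested.

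The miR-17 to miR-92a cluster and its relatives, which promote proliferation, had 3 members lower and 0 higher of 10 tested, with a median log2 fold change of -0.27, beside 10.6% lower and 18.3% higher over all tested miRNAs. The 3 were miR-19a-3p, from 60.5, 65.6 and 77.2 to 20.98, 27.5 and 21.6 normalized RPM (-1.53 ± 0.16, adjusted p = 0.000211), miR-19b-3p, from 441, 545 and 545 to 199.1, 297 and 205.9 (-1.12 ± 0.17, adjusted p = 0.00119), and miR-363-3p (-0.68 ± 0.17, adjusted p = 0.0132), which was no longer a DEM without low dose replicate 47 (-0.52). miR-19a-3p and miR-19b-3p share their seed, as the printed sequences show. In the related cluster of miR-106b, miR-93 and miR-25, 1 of 6 tested members fell, near that background. That was miR-93-3p, the rarer arm of its precursor, from 10.6, 9.39 and 9.54 to 2.61, 3.53 and 2.29 (-1.78 ± 0.21, adjusted p = 0.000344).

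Further lower DEMs came from families that did not move as a whole. miR-29a-3p, which represses collagen genes, was at 2409, 2557 and 2489 normalized RPM in controls and at 1439, 1215 and 1174 at the low dose (-0.96 ± 0.10, adjusted p = 0.000233). Of the 5 tested members of its family it was the only DEM, with miR-29c-3p at -0.50 ± 0.11 (adjusted p = 0.00634) and miR-29b-3p at 0.19 ± 0.15 (adjusted p = 0.33). miR-30c-5p, of a family that is abundant in epithelia, went from 6930.2, 6806 and 6343 to 3537, 4079.9 and 3565 (-0.84 ± 0.09, adjusted p = 0.000239). It was the only lower DEM of 11 tested miR-30 members, and miR-30b-3p was the only higher one (0.84). miR-125a-5p went from 2284, 2483 and 2735 to 1326, 1509 and 1305 (-0.86 ± 0.11, adjusted p = 0.000384). miR-128-3p, best known from neurons, went from 192.4, 175 and 179 to 46.1, 83.2 and 45.4 (-1.64 ± 0.23, adjusted p = 0.000789). At a lower level, miR-484 went from 22.2, 22.3 and 20.5 to 9.64, 11.3 and 9.31 (-1.10 ± 0.14, adjusted p = 0.000554). None of these 5 lower DEMs overlapped between the groups.

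miRNAs of blood cells and of contractile cells were lower in part, with the counts below set beside 10.6% lower over all tested miRNAs. miR-150-5p, a miRNA of mature lymphocytes, fell from 569, 595 and 504 to 205, 259 and 176 normalized RPM (-1.38 ± 0.15, adjusted p = 0.000239), and miR-223-3p, of neutrophils and other myeloid cells, from 84.1, 85.2 and 115 to 62.5, 47.8 and 69.8 (-0.66 ± 0.18, adjusted p = 0.0177). miR-223-3p was no longer a DEM without control replicate 6 (-0.50) or without low dose replicate 47 (-0.52). The other 2 of the 4 tested members of the leukocyte list, both of miR-142, were not DEMs. The 5 leukocyte markers, miR-155-5p among them, summed to between 3111 and 3720 RPM in controls and between 1839 and 2563 RPM at the low dose. Most of that sum was miR-142-5p, at 2289 to 2891 RPM and 1419 to 2182 RPM, which was not a DEM (-0.29 ± 0.18, adjusted p = 0.231). Of the red blood cell list 2 of 4 fell, miR-451-5p from 330.5, 402 and 220.8 to 154.3, 161 and 167 (-0.98 ± 0.20, adjusted p = 0.00467) and miR-144-5p from 72.5, 72.5 and 42.997 to 22.1, 32.1 and 32.5 (-1.11 ± 0.24, adjusted p = 0.00629). The summed red blood cell markers overlapped, with 4061 to 6085 RPM in controls and 3637 to 4427 RPM at the low dose. Most of that sum was miR-486, which was not a DEM (-0.23 ± 0.17, adjusted p = 0.303). Of the cluster of miR-143 and miR-145, which is expressed in smooth muscle and stellate cells, 3 of 4 fell, led by miR-145-5p from 272, 336 and 298 to 145.8, 169.5 and 116 (-1.07 ± 0.15, adjusted p = 0.000889). The abundant member miR-143-3p was not a DEM (0.14 ± 0.09, adjusted p = 0.218), and the 6 stellate or smooth muscle markers summed to overlapping ranges of 42726 to 47033 RPM and 44116 to 46065 RPM. The part of blood left in the samples or of cell number in these values was not tested.

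Weaker evidence stood behind some lower DEMs. miR-455-3p, which the study followed across conditions, was at 64.7, 70.7 and 50.5 normalized RPM in controls and 29.8, 55.9 and 30.2 at the low dose. The groups overlapped, the log2 fold change was -0.67 ± 0.26 with an adjusted p = 0.0645, and it was no longer a DEM without any one of 4 of the 6 replicates (-0.64 and -0.57 without control replicates 4 and 5, -0.52 and -0.53 without low dose replicates 46 and 48). For miR-10b-5p the 3 controls themselves were at 1947, 2377 and 558 normalized RPM, a wide spread, and the low dose values of 832, 343 and 505 overlapped with them (-1.54 ± 0.50, adjusted p = 0.0374). It was no longer a DEM without control replicate 4 (-1.39) or 5 (-1.16), by the p-value.

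**Figure D3:**
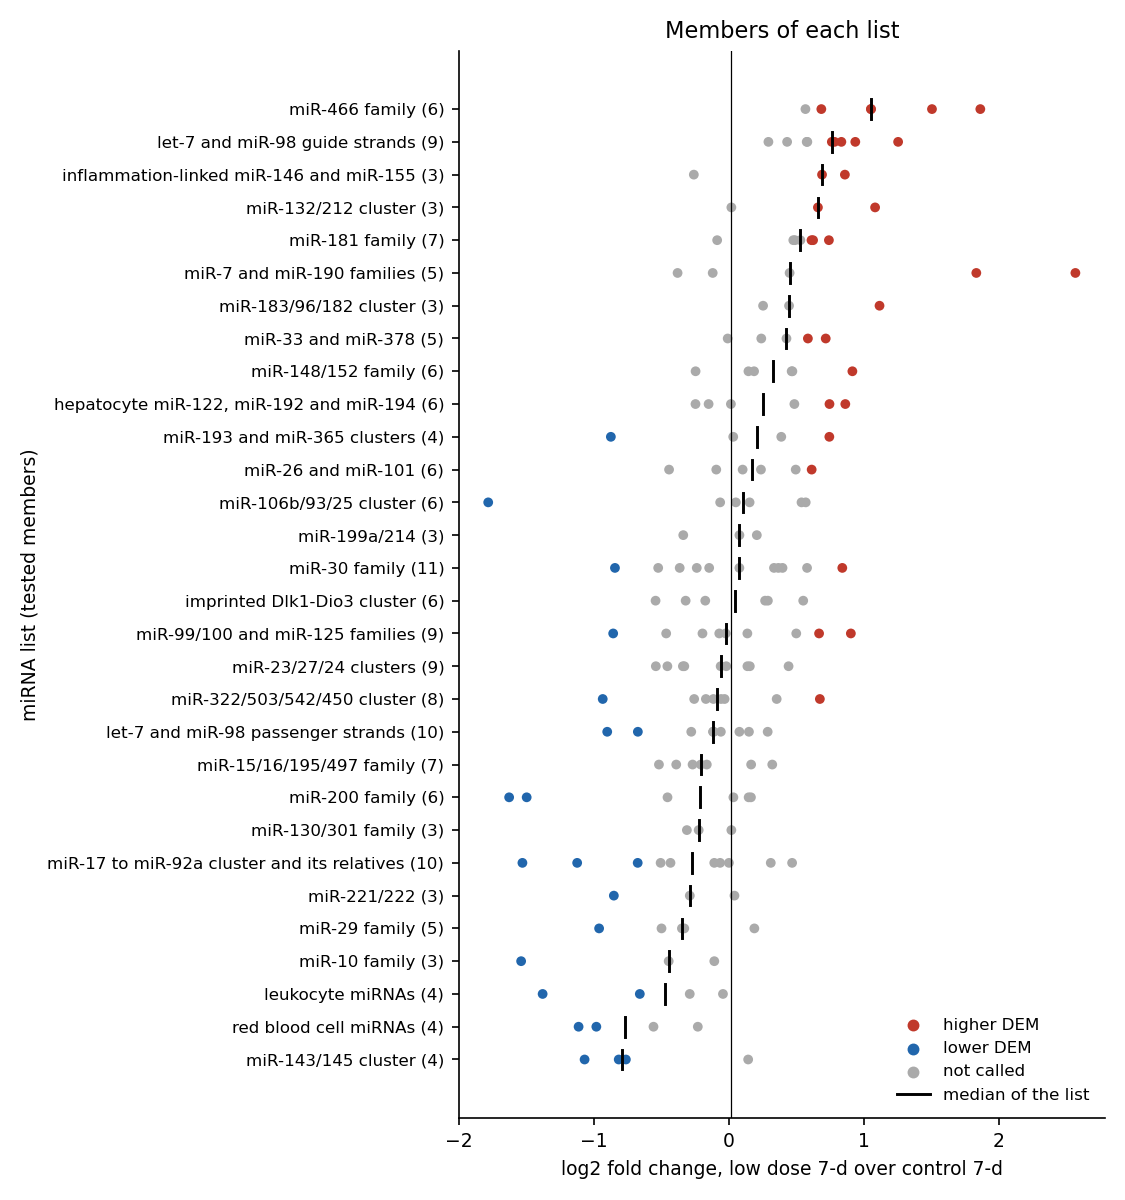
Each line is a list of miRNAs by family, genomic cluster or cell type, and each point is a tested member at its log2 fold change, low dose over control at 7-d, with the list median as a bar. The let-7 guide strands and the miR-466 family lie to the right of 0, and the leukocyte and red blood cell lists to the left.

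Other families and clusters held few or no DEMs. Of the 7 tested members of the family of miR-15, miR-16, miR-195 and miR-497, 0 were DEMs by the quasi-likelihood test, the exact test of edgeR or DESeq2, and 2 had an unadjusted p below 0.05, beside 50.8% of all tested miRNAs. With library size alone, the quasi-likelihood test called 1 of the 7 lower. The 5 miRNAs with a matched sequence and the miR-16 seed had negative log2 fold changes, between -0.52 and -0.16, and miR-15a-5p of the same family, which was not matched to a sequence, was at -0.21. Of the 6 tested members of the imprinted Dlk1-Dio3 cluster, 0 were DEMs by any of these tests and 0 had an unadjusted p below 0.05. Of the 9 tested members of the miR-23/27/24 clusters, 0 were DEMs by either test of edgeR after upper quartile normalization, and 3 had an unadjusted p below 0.05. DESeq2 called 1 of the 9, and the quasi-likelihood test called 1 lower with DESeq2 size factors and 1 with library size alone. The 2 arms of miR-22 and of miR-126a, the second an endothelial miRNA, were not DEMs either. miR-22-3p was next to miR-192-5p in abundance (-0.20 ± 0.08, adjusted p = 0.0703). Of the 87 DEMs, 57 were members of at least 1 of the 37 lists and 30 of none. A similar share of all tested miRNAs was in a list, so this count does not show that DEMs gathered in the lists.

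The libraries had the markers of liver, and 4 of the 8 markers of skeletal or heart muscle (miR-1-3p, miR-206-3p, miR-208a-3p and miR-208b-3p) had no read in any of the 6. All 8 muscle markers together summed to between 19.9 and 26.2 RPM in controls and between 21.4 and 22.7 RPM at the low dose, most of it miR-499-5p. Of the 2 muscle markers tested, miR-133a-3p was a lower DEM at 4.17, 4.92 and 5.9996 normalized RPM in controls and 3.13, 2.06 and 3.87 at the low dose (-0.76 ± 0.28, adjusted p = 0.0551), and was no longer one without control replicate 5 (-0.77) or 6 (-0.61) or low dose replicate 47 (-0.53). The brain and pancreas markers overlapped between the groups, at 4.05 to 5.98 against 3.92 to 7.83 RPM and at 355 to 385 against 277 to 439 RPM, as did the kidney marker miR-204-5p (43.3 to 45.1 against 23.9 to 62.4 RPM). The 2 endothelial markers summed to 20495 to 22586 RPM in controls and 18014 to 19691 RPM at the low dose. These sums were scaled by library total alone. After upper quartile normalization neither marker was a DEM. The larger part, miR-126a-5p, had a log2 fold change of 0.01 ± 0.10 (adjusted p = 0.952). For miR-126a-3p it was -0.40 ± 0.08 (adjusted p = 0.00442).

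The 2 arms of a precursor often differed. Among 93 precursors with both arms tested, both arms were DEMs in 5, 1 arm in 41 and neither in 47, and the log2 fold changes of the arms had the same sign in 46. Across these precursors Pearson's r between the arms was 0.11, as a description, since precursors are not independent replicates. The log2 ratio of the 5p to the 3p count (with 0.5 added to each) did not overlap between the groups for 61 of 93 precursors (65.6%), with 31 shifted toward 5p and 30 toward 3p. Shifts above 1 on the log2 scale occurred in 16 precursors, 14 toward 5p and 2 toward 3p. Some arms, such as let-7a-5p, miR-30c-5p and miR-7a-5p, arise from more than 1 precursor. Their ratios are then not those of the arms of 1 precursor alone.

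The largest shift was that of mir-128-1, the only precursor whose arms were DEMs in opposite directions. Its log2 ratio was -5.96, -6.29 and -6.39 in controls and -3.49, -4.25 and -3.08 at the low dose, a mean shift of 2.60. miR-128-1-5p is rare, at 3.04, 2.19 and 2.09 normalized RPM in controls and 4.04, 4.31 and 5.30 at the low dose (0.90 ± 0.24, adjusted p = 0.0159), and miR-128-3p also arises from a second precursor. The ratio of mir-7a-1 moved from 0.54, 0.78 and 0.80 to 2.89, 2.37 and 2.75, and that of mir-98 from 3.94, 3.76 and 3.91 to 5.38, 5.40 and 5.41. In the other direction, mir-30b moved from 7.40, 7.14 and 7.14 to 6.10, 5.62 and 5.89. The groups did not overlap in any of these. The more abundant arm gained in mir-7a-1 and mir-98 and lost in mir-30b and mir-128-1. In mir-7a-1 and mir-128-1 that arm also arises from another precursor.

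Sequence features of the matched miRNAs were counted by class. Among those with a named arm, 33 higher DEMs came from the 5p and 15 from the 3p arm, and 10 lower DEMs from the 5p and 17 from the 3p arm, while 129 of all matched miRNAs came from the 3p arm. The first base was U in 56.9% of the higher DEMs, 39.3% of the lower ones and 43.3% of all. The median GC content was 43.5%, 48.8% and 45.6%, respectively, and across the 270 matched miRNAs GC content and log2 fold change had a Pearson's r of -0.15 and a Spearman's rho of -0.11. These are descriptions across miRNAs, which are not independent replicates. By seed, the 4 tested miRNAs with the miR-181 seed all had positive values (0.53 to 0.74), as had all 9 with the let-7 seed.

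The low dose was next set against the higher doses at 7-d, treated against treated. Both comparisons use the same 3 low dose libraries as the comparison with controls. A miRNA picked there as higher or lower is in part bound to move back here. Counts of such miRNAs are therefore given as a description and not as separate support. Relative to the low dose, 34.2% of the tested miRNAs were DEMs at the middle dose, 53 of them higher (17.6%) and 50 lower (16.6%), and 99 of the DEMs had an adjusted p below 0.05 (32.9%). At the high dose 56 were DEMs (18.6%), 44 higher (14.6%) and 12 lower (3.99%), of which 4 had an adjusted p below 0.05 (1.33%). The count of 56 rested in part on single rats, with 36 DEMs without low dose replicate 48 and 86 without high dose replicate 27. For let-7a-5p, miR-122-5p and miR-34a-5p the spread between rats was widest at the high dose. For the values below, 18 libraries were normalized together, and means are given ± SD with n = 3.

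The let-7 guides were higher at the low dose than at the middle dose. In the middle dose comparison, 7 of the 9 tested were lower than at the low dose, with a median of -0.89, beside 16.6% lower over all tested miRNAs. In the high dose comparison 2 of 9 were lower, beside 3.99%. The list was described because it was high in these same low dose libraries. Of all 55 higher DEMs, 34 were lower and 2 higher at the middle dose, and 8 were lower and 10 higher at the high dose. let-7a-5p was at 5957 ± 603 normalized RPM in controls, 11403 ± 811 at the low dose, 5006 ± 248 at the middle dose and 6591 ± 1892 at the high dose. Middle minus low was -1.19 ± 0.09 on the log2 scale (adjusted p = 0.000105), and high minus low was -0.79 ± 0.21 (adjusted p = 0.105). miR-122-5p was also highest at the low dose, at 32918 ± 681, 55182 ± 3694, 26367 ± 2878 and 30599 ± 4808 normalized RPM from control to high dose. It was lower than at the low dose both at the middle dose (-1.07 ± 0.10, adjusted p = 0.000254) and at the high dose (-0.85 ± 0.14, adjusted p = 0.0387). miR-148a-5p was -1.42 ± 0.10 at the middle dose (adjusted p = 0.000105) and -1.04 ± 0.29 at the high dose (adjusted p = 0.105), relative to the low dose.

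**Figure D4:**
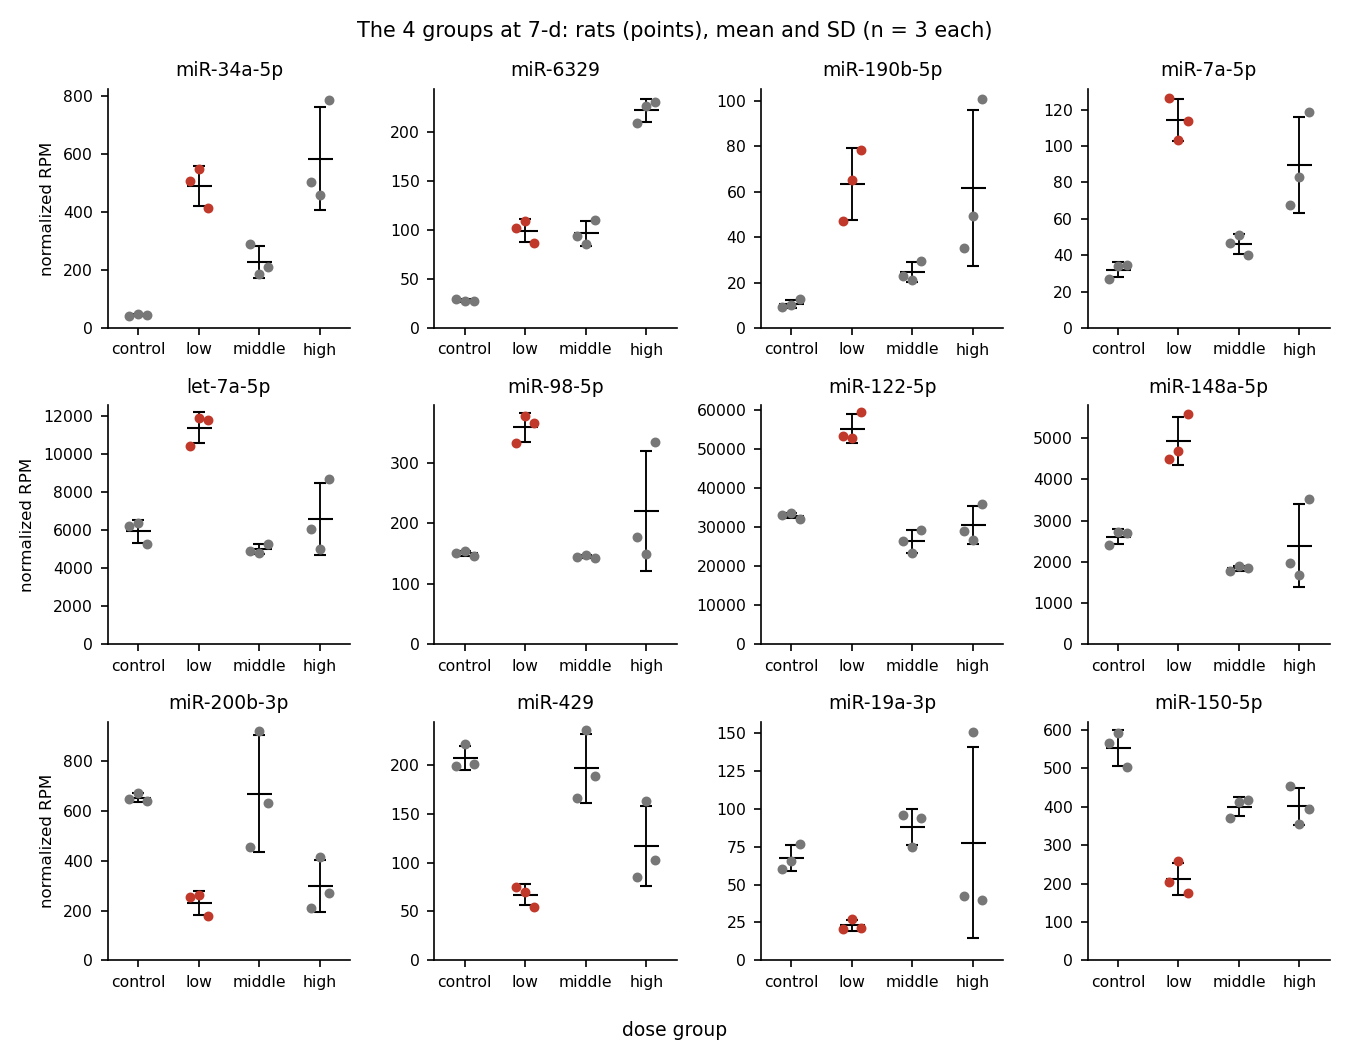
Normalized RPM on linear axes from 0 for selected miRNAs in the 4 groups at 7-d (control, low, middle and high dose), with each rat as a point and the mean and SD of n = 3. let-7a-5p and miR-122-5p are highest at the low dose, whereas miR-6329 is highest at the high dose.

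miR-34a-5p did not rise steadily with dose at 7-d. It was at 43.9 ± 3.72 normalized RPM in controls, 491 ± 68.6 at the low dose, 228 ± 55.1 at the middle dose and 584 ± 177 at the high dose. The middle dose was below the low dose (-1.11 ± 0.19, adjusted p = 0.00219), while the high and low doses were not distinguished (0.25 ± 0.24, adjusted p = 0.537). miR-6329 was -0.04 ± 0.14 at the middle dose relative to the low dose (adjusted p = 0.837) and rose further at the high dose (1.16 ± 0.16, adjusted p = 0.0387), where its mean was 222.6 ± 11.5 normalized RPM against 99.3 ± 11.7. Apart from miR-122-5p and miR-6329, the miRNAs with an adjusted p below 0.05 between high and low dose were miR-132-3p (1.31 ± 0.22) and miR-378a-3p (-0.72 ± 0.12).

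Several miRNAs that were lower at the low dose than in controls had higher values at the middle dose. Of all 32 lower DEMs, 22 were higher and 1 lower there than at the low dose, with the same low dose libraries in both comparisons. miR-19a-3p was at 67.5 ± 8.53 normalized RPM in controls, 23.3 ± 3.61 at the low dose and 88.0 ± 11.7 at the middle dose (middle minus low 1.91 ± 0.16, adjusted p = 0.000155). At the high dose the rats were at 42.7, 151 and 39.7, a wide spread (high minus low 1.74 ± 0.53, adjusted p = 0.117). miR-429 was 1.55 ± 0.17 at the middle dose (adjusted p = 0.00044) and 0.81 ± 0.27 at the high dose (adjusted p = 0.127), relative to the low dose. miR-128-3p was 1.67 ± 0.24 (adjusted p = 0.000978) and 1.20 ± 0.30 (adjusted p = 0.0822). By contrast, miR-451-5p was at 160.3 ± 6.32 normalized RPM at the low dose and 142.5 ± 11.7 at the middle dose (-0.17 ± 0.10, adjusted p = 0.187), and miR-455-3p was at 38.5 ± 14.9 and 38.2 ± 2.36 (-0.02 ± 0.25, adjusted p = 0.959).

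The same dose at 14-d has controls of its own, so its comparison shares no library with that at 7-d. At 14-d 98 miRNAs were DEMs (32.6%), 69 higher (22.9%) and 29 lower (9.63%). Of the 55 higher DEMs at 7-d, 34 were also higher at 14-d, which is 61.8% of the 7-d list and 49.3% of the 14-d list. Of the 32 lower DEMs, 17 were also lower at 14-d (53.1% and 58.6%). None of the 87 was a DEM in the opposite direction at 14-d, and 53 of the 55 and 29 of the 32 kept their sign. The share of all tested miRNAs that kept their sign is not given here, so the sign counts have no background beside them. Across the tested miRNAs the log2 fold changes at the 2 time points had a Pearson's r of 0.65 and a Spearman's rho of 0.70, as a description across miRNAs.

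**Figure D5:**
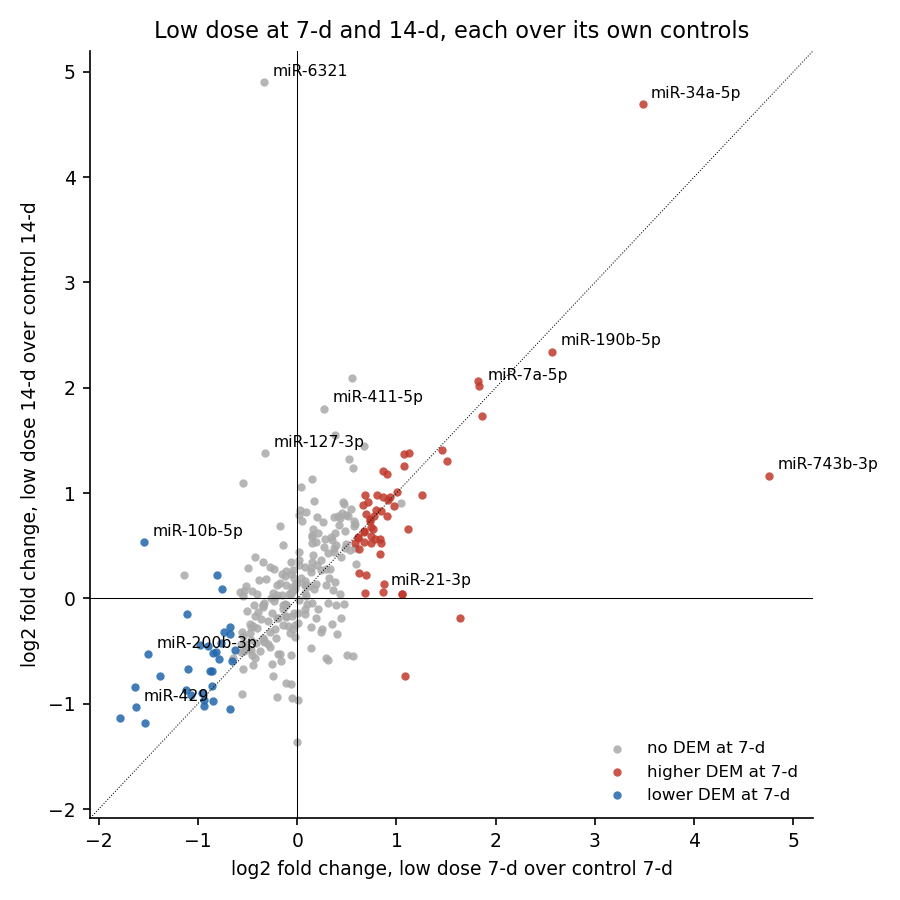
Log2 fold changes of the tested miRNAs at the low dose, at 7-d on the x axis and at 14-d on the y axis, each over its own 3 controls. Most of the 87 DEMs of 7-d lie in the quadrants of equal sign, with miR-34a-5p among the largest increases at both time points.

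The test of the difference between the effects at 14-d and 7-d called 35 miRNAs (11.6%), 23 with a higher value at 14-d (7.64%) and 12 with a lower one (3.99%), and 3 had an adjusted p below 0.05 (0.997%). miR-34a-5p was at 22.6, 30.5 and 28.7 normalized RPM in the 14-d controls and 549, 509 and 1062 in the 14-d low dose rats. Its effect at 14-d exceeded that at 7-d by 1.21 ± 0.34 on the log2 scale at an unadjusted p below 0.05, which did not pass adjustment (adjusted p = 0.181). For miR-122-5p the difference was -0.07 ± 0.18 (adjusted p = 0.888) and for let-7a-5p 0.02 ± 0.16 (adjusted p = 0.954). The effects on the lower miRNAs miR-200b-3p (0.97 ± 0.31, adjusted p = 0.181) and miR-429 (0.59 ± 0.23, adjusted p = 0.234) were nearer to 0 at 14-d, again without passing adjustment.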

How the data were processed

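Liver RNA of 48 male rats was profiled by miRNA-seq, and the 6 libraries of low dose 7-d and control 7-d are described here. The deposited file holds raw counts. To make them, the authors trimmed adaptors, discarded reads outside 18 to 25 bases, and mapped and counted the rest against miRBase release 21 with miRDeep2, and read mapping to the rat genome build rn5 served as their check of origin. Neither normalization nor a filter on low counts was applied to the deposited counts, and replicates were not pooled. Precursors of one mature miRNA receive the same reads, so the precursor with the most reads was kept (71 mature miRNAs had several).

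Groups were taken from the dose and time labels. The 6 libraries were compared in edgeR 4.0.16 (R 4.3.3) by its quasi-likelihood F-test after upper quartile normalization, since the paper's methods name edgeR, this normalization and the DEM thresholds (unadjusted p below 0.05, fold above 1.5) but not the libraries of a fit. Normalized RPM are reads per 1000000 counted reads scaled by these factors. An SE is the size of the log2 fold change divided by the square root of its F. With 3 rats against 3 an exact permutation test cannot reach p < 0.05, so none was run. Middle and high dose were each compared with low dose in fits of 6 libraries, and the effects at 7-d and 14-d in a fit of 12. Arm ratios, sequence features and marker sums are descriptions. Members and lists were chosen with earlier results of these data known, and the lists are described by counts.

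Named miRNAs are those the study names, the 10 higher and 10 lower DEMs with the smallest p whose groups did not overlap, the 5 most abundant DEMs, and members of the lists. Others, such as miR-449a-5p, miR-743b-3p and miR-128-1-5p, were chosen after their values were seen. Alternatives were TMM, DESeq2 1.42.0 size factors, library size alone, no filter, 2 stricter filters, the exact test of edgeR, DESeq2, a single fit of 48 libraries, adjusted p-values, other controls, sums or means over precursors, and each library left out. The scripts were tested on simulated data. Python 3.11.15 with pandas 2.3.3 was used for tables.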

Additional observations from a re-analysis of the deposited data

Results flagged for a closer look

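The effect of the low dose differed between 14-d and 7-d, at an adjusted p below 0.05 in the test of the difference, for 3 miRNAs. For miR-127-3p of the Dlk1-Dio3 cluster the effect at 14-d exceeded that at 7-d by 1.70 on the log2 scale. Its 3 controls held between 229 and 345 reads at 7-d and between 112 and 115 at 14-d, and its low dose rats at least 169 at 7-d and 191 to 297 at 14-d. For miR-411-5p of the same cluster the difference was 1.53, with 131 to 172 reads in controls at 7-d and 27 to 59 at 14-d, and with 115 or more reads in each low dose rat at 7-d and 84 or more at 14-d. For miR-6321 the difference was 5.23, with 41 to 57 reads in controls at 7-d and 0 to 5 at 14-d, while 1 of the 3 low dose rats at 7-d held 6 reads and the others 35 and 48. Its low dose rats at 14-d held 39, 53 and 60 reads. In all 3 miRNAs the control reads, not scaled for library size, lay apart between the time points. The cause of the difference in effect was not tested.

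Among miRNAs too rare to be tested, 2 had more than 3 reads in every low dose rat and at most 3 in every control. miR-34a-3p had a mean of 1.63 RPM at the low dose (10, 17 and 15 reads) and 1 read in each control. miR-3569 had a mean of 0.798 RPM (6, 10 and 5 reads) against 1, 3 and 1 reads.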

How the results depend on the processing

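The number of DEMs between low dose and control at 7-d was 87, lay between 85 and 91 with each library left out, and stayed within 1.5 times of 87 under each alternative run. It was lowest at 69 (at least 5 RPM in all 6 libraries) and highest against the 6 controls of 14-d and 28-d (63 higher and 59 lower). DEMs in the lists lay between 54 and 58 with each library left out. The 55 higher DEMs lay between 50 and 59 and the 32 lower between 28 and 37 with each library left out. The lower DEMs numbered 49 with library size alone. With the 14-d and 28-d controls, 63 of the 87 DEMs kept their call, with all 12 controls pooled 57 of 87. Of the 55 higher DEMs 24, and of the 32 lower 16, kept their call in every alternative. High against low dose at 7-d gave 56 DEMs, 4 with adjusted p-values, between 36 (without low dose replicate 48) and 86 (without high dose replicate 27). The difference of effects at 14-d and 7-d gave 35 calls, 12 in a single fit of 48 libraries, 3 with adjusted p-values, and between 25 and 39 with each library left out. The exact test of edgeR was not run for it. Signs reversed for miR-101a-3p (-0.0015), miR-10b-5p (0.31), miR-21-3p (-0.39) and miR-466c-3p (-0.14) with the 14-d and 28-d controls, for miR-320-3p (-0.20) and miR-378a-5p (-0.33) with all 12 controls pooled, and for miR-743b-3p, which lay between -4.01 (without low dose replicate 48) and 5.38 with single libraries left out. The cause was not tested. A tally over alternatives followed the DEMs and hardly any other miRNA. In it 1564 values kept their direction and call, 159 lost the call, 2 gained it and 7 reversed. It therefore leaves out most miRNAs that were called under an alternative only. With the 14-d and 28-d controls, for example, the 63 higher and 59 lower calls included only 63 of the 87 DEMs. No paired analysis was possible because the labels number the rats 1 to 48 without a number shared between groups. With 3 rats a group, a miRNA that misses the thresholds is not shown to be unchanged.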

Other observations

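Of the miRNAs that were too rare to be tested, 3 had more than 3 reads in every control and at most 3 in every low dose rat. miR-23b-5p had 4, 4 and 6 reads in controls and 3, 1 and 3 at the low dose, miR-3074 had 6, 4 and 5 reads and 1, 0 and 1, and miR-3572 had 4, 7 and 4 reads and 0, 1 and 2. Counts of this size leave wide counting error.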
